A study of Homo sapiens with 4 samples.

Results

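The keratin genes of A549 cells, an established line from a human lung adenocarcinoma, were followed in cells that received a CRISPR guide against UHRF1. They were taken as the protein-coding rows of the count table whose GENCODE 29 symbol is KRT followed by a number, with an optional final letter. Keratin-associated proteins (KRTAP) and keratinocyte-associated proteins (KRTCAP) were left out. This gave 55 genes out of 19951 protein-coding rows and 58735 rows in all: 28 of type I, 26 of type II, and KRT222, to which no type was assigned. RNA-seq read counts were available for 4 libraries, 2 from cells with a non-targeting guide (control) and 2 from cells with a guide against UHRF1 (UHRF1 KO). Both groups were infected with lentivirus made from lentiCRISPRv2-hygro, which carries Cas9, and were selected with hygromycin. The sources used here do not say whether pools or single clones were sequenced, or how long after infection. The labels do not say that replicate libraries stem from separate cultures. The p-values then measure only how far these libraries spread, and that spread may be technical.

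Keratins are the intermediate filament proteins of epithelial cells. An acidic type I chain pairs with a basic type II chain, and neither builds a filament alone. Simple, single-layered epithelia such as those of the lung and gut use KRT8 with KRT18, together with KRT7, KRT19 and KRT20. The basal cells of stratified epithelia use KRT5 with KRT14 and KRT15, cells leaving the basal layer of the epidermis use KRT1 with KRT10, and injured or inflamed skin turns on KRT6A, KRT6B, KRT16 and KRT17. Other keratins belong to the hair root sheath or form the hard fibres of hair and nail. UHRF1 binds hemimethylated CG sites behind the replication fork and recruits the maintenance methyltransferase DNMT1. DNA methylation was not measured in these libraries.

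In the UHRF1 KO libraries the simple keratins KRT8, KRT18, KRT7 and KRT19 were 1.27- to 1.37-fold lower, while 7 keratins of stratified epithelia were higher, led by KRT17. KRT17 went from 0.410 ± 0.18 CPM in control to 56.7 ± 0.76 CPM in UHRF1 KO (SD, n = 2), and KRT6A, with 0 counts in both controls, reached 1.89 ± 0.33 CPM. Of the simple keratins, KRT20 alone was higher, and of the stratified keratins KRT10 alone was lower. The dominant hair keratin, KRT81, differed by less than the test could call. CPM is the read count per 1000000 counted reads of the library, after TMM scaling for differences in library makeup.

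Only 20 of the 55 keratins had enough counts to enter the edgeR quasi-likelihood fit, which tested 17030 genes with Benjamini-Hochberg adjustment and called those with an adjusted p under 0.05. Of these 20, 10 were called higher and 7 lower. The background is high, since 32.0% of all tested genes were called higher and 30.1% lower. At a minimum of 2-fold, 9 keratins were higher and 2 lower, where the shares over all tested genes were 15.4% and 2.54%. A gene that was near 0 in control could enter the fit only through the UHRF1 KO libraries and so had to differ. The split is therefore not evidence about keratins as a group. The 7 tested keratins with under 10 counts in a control entered the fit only through UHRF1 KO. They are KRT6A, KRT6B, KRT12, KRT14, KRT17, KRT20 and KRT79, and their adjusted p-values are not independent support for a rise. Among the 13 keratins with at least 10 counts in each control library, 3 were called higher and 7 lower, with a median log2 fold change of -0.34. Over the 14832 genes that met the same minimum, 26.7% were higher and 34.5% lower, with a median of -0.06. Another 16 keratins had no count in any library.

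Total counts ran from 18604598 to 23977168 per library, so 1 count was worth 0.0417 to 0.0538 CPM before TMM scaling. UHRF1 itself had 1740 and 1834 counts in control and 811 and 1000 in UHRF1 KO. The log2 fold change was -1.31 (edgeR adjusted p = 3.92e-20), and protein was not measured. The label of the line was set against its markers. ALDH1A1, AKR1B10, AKR1C1 and ALDH3A1, enzymes that A549 is known to express strongly, lay between 792 and 8215 CPM in both groups, and CDKN2A and CDKN2B, which A549 is known to have lost, were at 0 counts. Alveolar markers were absent or nearly so in control: NKX2-1 and SFTPA1 had 0 counts in all 4 libraries, SFTPC 1 count in 1 control library, and SFTPB 0 and 2. SFTPB rose to 38 and 41 counts in UHRF1 KO (edgeR adjusted p = 1.07e-07). In bulk RNA, fewer cells of a type and less RNA per cell cannot be told apart.

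**Figure D1:**
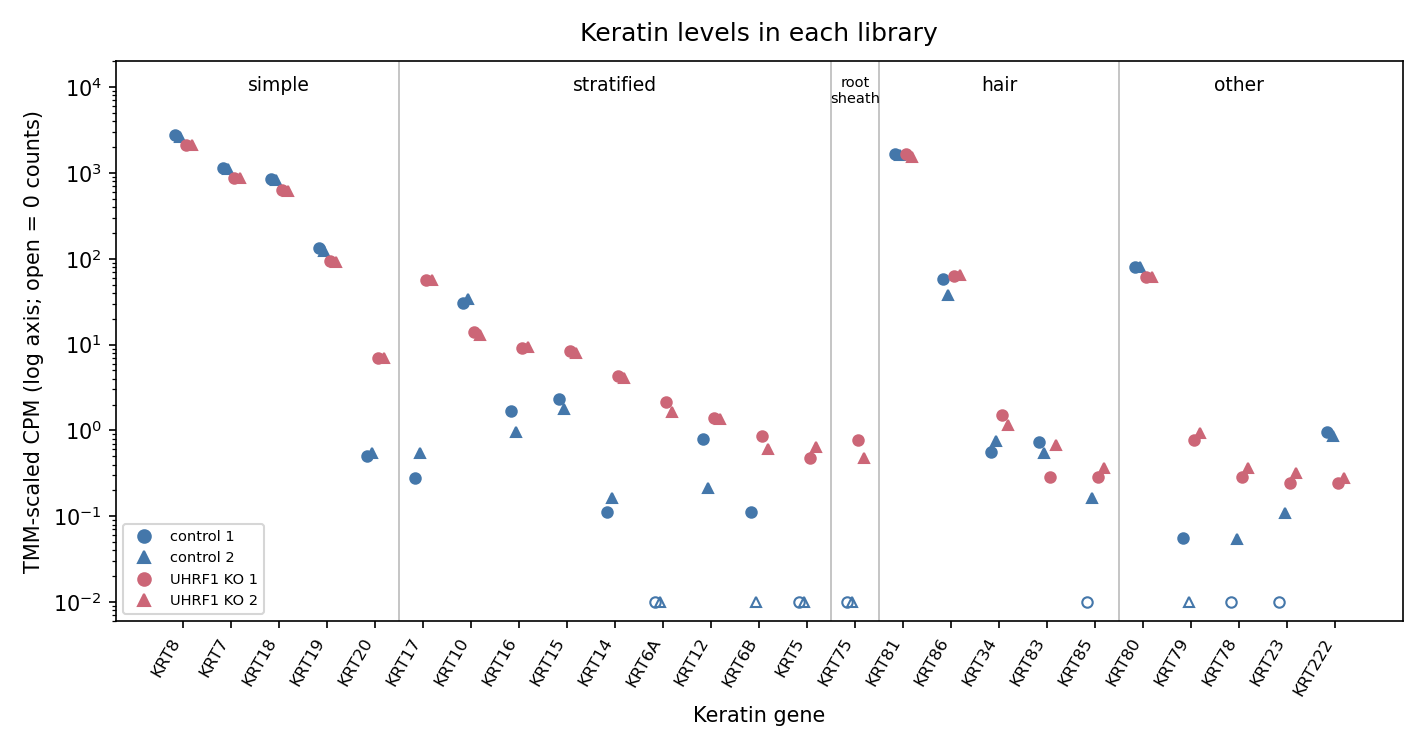
TMM-scaled CPM (log axis) of the 25 keratins with at least 15 counts over the 4 libraries, grouped by class, with 1 symbol per library and open symbols for 0 counts. KRT17 sits at 0.280 and 0.539 CPM in control and at 57.2 and 56.2 CPM in UHRF1 KO, while KRT8, KRT7, KRT18 and KRT19 sit slightly lower in both UHRF1 KO libraries.

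The promoter sequences of 4 keratins are shown because, among those with a RefSeq entry, they cover the different responses: KRT5 and KRT79, at 0 or 1 counts in control, KRT20, the simple keratin that rose, and KRT10, the stratified keratin that fell. Each is the stretch of 250 bases before the RefSeq start on GRCh38.p14, all on the minus strand, written 5′ to 3′, with CG dinucleotides, the sites of DNA methylation, in capitals. They lie at chr12:52520395-52520644 (KRT5), chr12:52834312-52834561 (KRT79), chr17:40885243-40885492 (KRT20) and chr17:40822615-40822864 (KRT10). The gene span of KRT5 in GENCODE 29 begins upstream of this RefSeq start.
KRT5: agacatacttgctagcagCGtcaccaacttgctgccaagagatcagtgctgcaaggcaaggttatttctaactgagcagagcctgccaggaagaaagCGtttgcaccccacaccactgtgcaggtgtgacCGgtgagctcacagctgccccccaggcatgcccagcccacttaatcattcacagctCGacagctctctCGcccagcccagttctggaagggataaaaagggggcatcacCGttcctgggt
KRT79: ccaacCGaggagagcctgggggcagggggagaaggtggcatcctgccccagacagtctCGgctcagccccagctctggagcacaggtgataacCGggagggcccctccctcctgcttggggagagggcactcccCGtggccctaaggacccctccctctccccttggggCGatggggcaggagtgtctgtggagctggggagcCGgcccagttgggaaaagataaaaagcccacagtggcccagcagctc
KRT20: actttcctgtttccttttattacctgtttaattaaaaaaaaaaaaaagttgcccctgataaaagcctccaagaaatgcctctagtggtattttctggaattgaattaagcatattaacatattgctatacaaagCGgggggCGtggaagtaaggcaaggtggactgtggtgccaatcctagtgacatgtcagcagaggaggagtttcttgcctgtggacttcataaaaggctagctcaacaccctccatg
KRT10: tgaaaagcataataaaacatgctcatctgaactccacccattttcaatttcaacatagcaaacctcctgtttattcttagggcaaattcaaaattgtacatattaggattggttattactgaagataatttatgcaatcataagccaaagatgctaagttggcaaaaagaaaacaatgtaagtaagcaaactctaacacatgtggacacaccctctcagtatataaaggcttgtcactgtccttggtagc
The KRT5 and KRT79 stretches hold 6 CG each, the KRT20 stretch 2 and the KRT10 stretch 0. RefSeq promoter windows, which run from 250 bases before to 50 after a start, were found for 34 of the 55 keratins, as 38 entries. Only 6 of the 20 tested keratins are among them, and the KRT8 entry belongs to an upstream start, so the shares that follow leave out most of the tested keratins. Their median was 2 CG per window of 300 bases, with a range from 0 to 8, against a median of 14 over all 35116 entries and 21 over the 21021 entries of protein-coding symbols. The letters TATAAA, searched on both strands, stood in 21 of the 38 keratin windows (55.3%), against 11.5% of all entries. KRT10 has them on its own strand, beginning 29 bases before the start. The letters TGANTCA, a palindrome known as the AP-1 site and distinct from TATAAA, stood in 0 of 38 keratin windows and in 7.71% of all entries. These matches describe the windows only.

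The simple keratins were detected in every library, and 4 of the 5 fell, where 30.1% of all tested genes did. These 4 had at least 10 counts in each control, and over all genes with that minimum 34.5% fell. KRT8, the main type II keratin of simple epithelia, on chromosome 12 (chr12:52897187-52949954), had 49080 and 48235 counts in control and 43945 and 52113 in UHRF1 KO, which is 2676 ± 108 CPM against 2108 ± 16.0 CPM (SD, n = 2). Its log2 fold change was -0.34 (SE 0.031, edgeR adjusted p = 2.37e-11), and after scaling both UHRF1 KO libraries lay below both controls. The raw counts overlap because the second UHRF1 KO library is the deepest.

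KRT18, the type I partner of KRT8 and the 1 type I gene that lies in the type II cluster, had 15252 and 15305 counts in control and 13018 and 15367 in UHRF1 KO, with a log2 fold change of -0.43 (SE 0.033). KRT7, a type II keratin of ducts and glands, had 20476 and 20585 counts against 17945 and 21724 and a log2 fold change of -0.38 (SE 0.032). KRT19, a type I keratin of simple epithelia that lacks most of the usual tail, had 2384 and 2257 counts against 1949 and 2310 and a log2 fold change of -0.45 (SE 0.049). Their edgeR adjusted p values were 2.67e-13, 3.72e-12 and 1.12e-09. In scaled CPM neither group overlapped the other for any of these 4 genes. With 2 against 2 libraries, an exact permutation test of such a separation cannot go below p = 0.333. The share of all tested genes that separate in this way is not given here. The summed level of KRT7, KRT8, KRT18 and KRT19 was 4890 and 4656 CPM in control and 3706 and 3681 CPM in UHRF1 KO, 1.29-fold lower. Whether the partners KRT8 and KRT18 fell by different amounts was not tested.

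KRT20, a type I keratin of the gut lining and of umbrella cells of the bladder, went the other way. It had 9 and 10 counts in control and 145 and 172 in UHRF1 KO, or 0.522 ± 0.024 CPM against 6.96 ± 0.051 CPM (SD, n = 2). The log2 fold change was 3.72 (SE 0.27, edgeR adjusted p = 6.82e-14), which is 13.2-fold higher, and every UHRF1 KO value lay far above the controls. No window of 50 bases of its transcripts occurs in another gene of the annotation. Its position is chr17:40875941-40885227.

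Among the 17 stratified keratins, 8 were tested, 7 rose and 1 fell. Most of the risen ones were near 0 in control, and of the 3 with at least 10 counts in each control 2 rose (KRT15 and KRT16) and 1 fell (KRT10), where 26.7% and 34.5% of all genes with that minimum did. KRT17, a type I keratin of basal and wounded epithelium at chr17:41619441-41624842, had 5 and 10 counts in control and 1187 and 1396 in UHRF1 KO. The fold change was 135-fold, or 7.08 on the log2 scale (SE 0.16), with an edgeR adjusted p of 6.41e-28. The control libraries held a few reads and the UHRF1 KO libraries more than 1000 each, with no overlap.

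Its neighbour KRT16, a type I partner of KRT6 in activated skin, had 30 and 18 counts in control and 189 and 231 in UHRF1 KO (log2 fold change 2.80, SE 0.21, edgeR adjusted p = 3.31e-13). KRT14, the main type I keratin of basal cells, had 2 and 3 counts against 90 and 102 (log2 fold change 4.88, SE 0.41, edgeR adjusted p = 3.48e-12). KRT15, a type I keratin of basal and hair-bulge cells, had 41 and 33 counts against 175 and 198 (log2 fold change 2.01, SE 0.19, edgeR adjusted p = 8.89e-11). For all 3 genes the UHRF1 KO libraries stood clearly above the controls, but KRT14 entered the fit only through UHRF1 KO. KRT12, the type I keratin of the cornea, was less even: it had 14 and 4 counts in control and 29 and 34 in UHRF1 KO (log2 fold change 1.47, SE 0.45, edgeR adjusted p = 0.00528). Without control replicate 2, its log2 fold change was 0.79 (edgeR adjusted p = 0.159), and DESeq2 did not call it (adjusted p = 0.0645).

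The type II keratins of stratified epithelia began at or near 0. KRT6A, induced in wounded and activated keratinocytes, had 0 counts in both controls and 44 and 41 in UHRF1 KO. Set against a floor of 3 counts summed over both controls, it was at least 22.6-fold higher (edgeR adjusted p = 6.49e-09). KRT6B had 2 and 0 counts in control and 18 and 15 in UHRF1 KO, a ratio of 13.2 with an exact 95% counting interval from 3.37 to 113 (edgeR adjusted p = 0.000274). Both KRT6A and KRT6B entered the fit only through UHRF1 KO, so their p-values are not independent support for a rise. KRT5, the type II partner of KRT14 in basal cells, had 0 and 0 counts against 10 and 16, at least 6.92-fold higher by the same floor, but did not have enough counts to be tested. KRT6C had 1 count in 1 UHRF1 KO library, KRT76 had 2 and KRT3 had 1 in a control, and KRT1 and KRT2, of the differentiating epidermis, had none. KRT4, the type II keratin of the oesophagus lining, had 3 and 4 counts in control and 4 and 3 in UHRF1 KO, and its usual partner KRT13 had 1 count in all. Per kilobase (kb) of exon, the type II genes KRT6A, KRT6B and KRT5 stood at 0.644, 0.322 and 0.131 CPM in UHRF1 KO, below the 1.85, 3.72 and 18.1 CPM of the type I genes KRT14, KRT16 and KRT17.

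KRT10, the type I keratin of the layers above the basal layer, fell. Its level was 30.8 and 33.9 CPM in control and 14.0 and 12.9 CPM in UHRF1 KO, with means of 32.3 ± 2.2 and 13.5 ± 0.82 CPM (SD, n = 2). The log2 fold change was -1.27 (SE 0.090, edgeR adjusted p = 4.98e-14), 2.41-fold lower, with both UHRF1 KO libraries below both controls. Its type II partners in the epidermis, KRT1 and KRT2, were at 0 counts in all 4 libraries, which allows up to 0.161 CPM in the shallowest. Because KRT10 was the highest stratified keratin in control, the summed stratified level rose less than its members: it was 36.3 and 37.8 CPM in control and 98.3 and 94.9 CPM in UHRF1 KO, a ratio of 2.61. KRT16 and KRT17 together went from 1.96 and 1.51 CPM to 66.4 and 65.4 CPM.

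**Figure D2:**
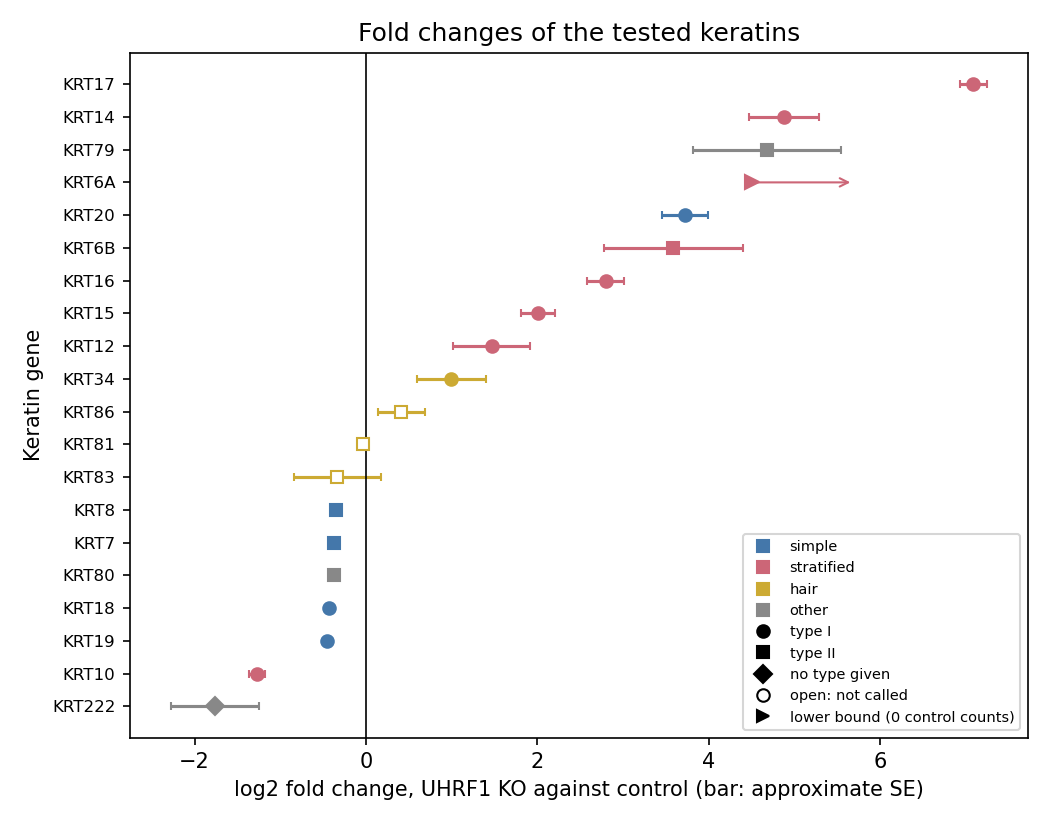
Log2 fold change of the 20 tested keratins in UHRF1 KO against control, with approximate standard errors, coloured by class and with 1 symbol shape per type. The triangle with an arrow is the lower bound of KRT6A, which had 0 control counts. Stratified keratins fill most of the upper end from 1.47 to 7.08, and the simple keratins other than KRT20 lie between -0.45 and -0.34.

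Of the 17 hair keratins, 4 were tested, 1 rose and 0 fell, and all 4 had at least 10 counts in each control. Over all genes with that minimum 26.7% rose and 34.5% fell. Whether hair and stratified keratins differed was not tested. KRT81, a type II hair cortex keratin at chr12:52285913-52291534, had the highest level per kb of exon of any keratin in both groups. That rank depends on the exon length used. KRT8 had more CPM (2676 in control and 2108 in UHRF1 KO), but its annotated exons cover 6881 bases, against 1929 for KRT81. KRT81 had 29594 and 30372 counts in control and 34703 and 38509 in UHRF1 KO, or 1648 ± 15.9 CPM against 1611 ± 87.9 CPM (SD, n = 2), and the groups overlapped. Its difference of -0.03 on the log2 scale (SE 0.033, edgeR adjusted p = 0.400) was not called, and its sign depends on the scaling: it was 0.08 and called higher (edgeR adjusted p = 0.0388) with library size alone. Without control replicate 2 it was called lower, at -0.06 (edgeR adjusted p = 0.0257).

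KRT86, a close relative of KRT81 whose span encloses KRT81 on the opposite strand, had 1034 and 701 counts in control and 1300 and 1601 in UHRF1 KO (log2 fold change 0.41, edgeR adjusted p = 0.321). In CPM the controls (58.0 and 37.8) lay farther from each other than control 1 lay from UHRF1 KO (62.7 and 64.4), and without control replicate 1 the log2 fold change was 0.73 (edgeR adjusted p = 4.13e-23). Leaving out UHRF1 KO replicate 1 (0.42) or UHRF1 KO replicate 2 (0.39) also made it a call. Of the 50-base windows in KRT81 transcripts 37.6% also occur in KRT86, and of those in KRT86 30.8% occur in KRT81, so reads can be split between them and both levels are uncertain. KRT83, another type II hair keratin, had 13 and 10 counts against 6 and 17 and was not called (edgeR adjusted p = 0.590). KRT34, a type I hair keratin, had 10 and 14 counts in control and 31 and 29 in UHRF1 KO (log2 fold change 1.00, edgeR adjusted p = 0.0312). That call was lost without control replicate 1 (adjusted p = 0.170), without either UHRF1 KO replicate (0.224 without replicate 1, 0.0588 without replicate 2), with no filter (0.0630) and in DESeq2 (0.172). The other 13 hair keratins had at most 9 counts in any library, and 6 of them had none. KRT85 had 0 and 3 counts in control and 6 and 9 in UHRF1 KO, a ratio of 3.99 with a counting interval from 1.13 to 21.5. The summed hair level, nearly all KRT81, was 1719 and 1677 CPM in control and 1739 and 1616 CPM in UHRF1 KO, with overlapping groups.

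None of the 9 root sheath keratins could be tested, and 6 had no counts. KRT75, a type II keratin of the companion layer of the hair follicle, had 0 counts in both controls and 16 and 12 in UHRF1 KO, at least 7.45-fold higher against the floor. KRT73 and KRT72 had at most 2 counts in a library, and the 4 type I root sheath keratins, KRT25 to KRT28, were all at 0. Keratins outside these classes were mixed. KRT79, a type II keratin of sebaceous ducts and the upper hair follicle, had 1 and 0 counts in control and 16 and 23 in UHRF1 KO, a ratio of 31.1 with a counting interval from 5.27 to 1260 (edgeR adjusted p = 1.96e-05). KRT79 entered the fit only through UHRF1 KO, so its p-value is not independent support for a rise. Its neighbour KRT78 had 0 and 1 counts against 6 and 9 and was not tested. KRT80, an epithelial type II keratin, had 1426 and 1475 counts in control and 1280 and 1518 in UHRF1 KO. Its log2 fold change was -0.38 (edgeR adjusted p = 1.87e-07), so its scaled fall was close in size to that of KRT7. KRT222 had 17 and 16 counts against 5 and 7 (log2 fold change -1.76, edgeR adjusted p = 0.00359). It lost that call without control replicate 1 (0.0575), without UHRF1 KO replicate 1 (0.0513) and in DESeq2 (0.0574), and 33.5% of its windows lie in the readthrough row AC073508.2, which had 0 counts. KRT23, a type I keratin, had 0 and 2 counts against 5 and 8.

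Without a filter on low counts, 3 of the 35 untested keratins were called higher, KRT75 (edgeR adjusted p = 2.30e-05), KRT5 (5.66e-05) and KRT78 (0.0339), and none lower. For KRT23 and KRT85 the adjusted p was 0.153 and 0.169. Of these 35 genes, 28 had at most 3 counts in every library, where no change could be detected at this depth. Counts were found for 29 keratins in control and 37 in UHRF1 KO. Of the 10 keratins seen in UHRF1 KO alone, 7 had 3 counts or fewer in all, and the UHRF1 KO libraries were deeper.

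The 2 types were compared next. Of 28 type I keratins 10 were tested, 7 rose and 3 fell (KRT10, KRT18 and KRT19). Of 26 type II keratins 9 were tested, 3 rose (KRT6A, KRT6B and KRT79) and 3 fell (KRT7, KRT8 and KRT80). Many of these rises were of genes admitted to the test by the UHRF1 KO libraries. With at least 10 counts in each control, 3 of 6 type I genes rose and 3 fell, and 0 of 6 type II genes rose and 3 fell, against 26.7% and 34.5% of all genes with that minimum. Leaving out any 1 library raised the type II count, partly because the filter then let in more genes: 10 or 11 type II keratins were tested instead of 9. KRT5 and KRT75, untested in the main fit, were added in this way, while KRT86 was tested in the main fit and not called there. The difference between types was not tested. Sums in CPM given elsewhere are not corrected for gene length. In the comparison of types and in the ranks that follow, levels are per kb of exon, from the union of GENCODE 29 exons. That length overstates a transcript with rarely used exons, as for KRT8, and so understates its level.

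Per kb, type II keratins summed to 1584 and 1532 CPM in control and 1430 and 1364 in UHRF1 KO, and type I keratins to 340 and 326 against 272 and 268. The ratio of type II to type I was 4.67 and 4.70 in control and 5.25 and 5.10 in UHRF1 KO, so type II exceeded type I in every library. KRT81 alone gave 44.7% and 45.7% of the summed keratin level per kb in control and 51.0% and 49.2% in UHRF1 KO. The simple keratins gave 52.2% and 51.5% against 44.6% and 46.2%, and the stratified keratins 0.827% and 0.907% against 1.96% and 1.97%. The share of stratified keratins thus stayed small even after the rise of KRT17. Shares depend on each other, so a lower share of 1 class raises the others. The share of KRT81 also depends on the exon length taken for KRT8.

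**Figure D3:**
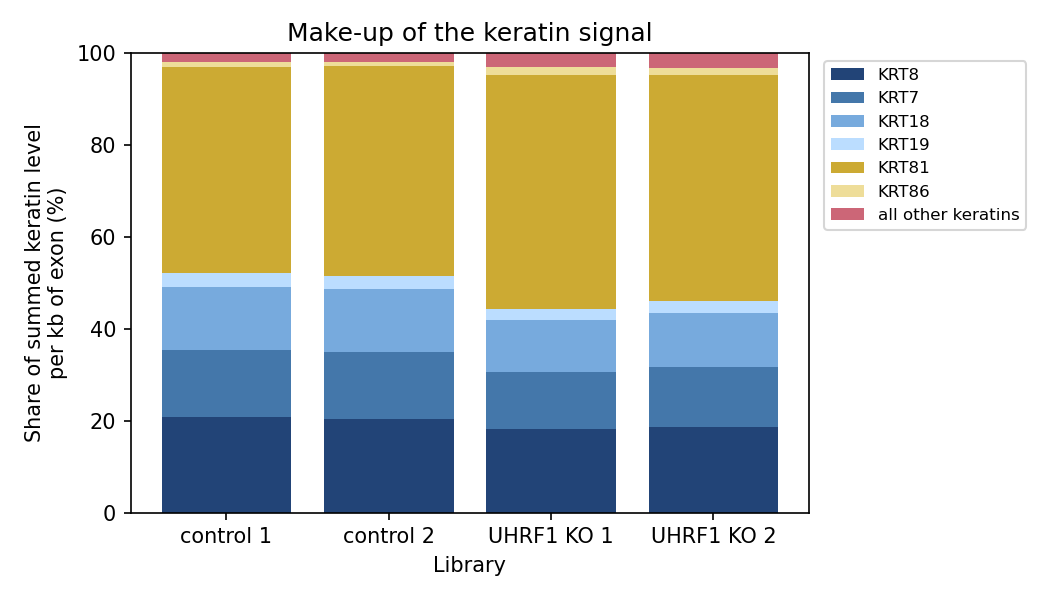
Share of the summed keratin level per kb of exon in each of the 4 libraries, in percent, with 1 colour per gene and all keratins outside the 6 named ones pooled. KRT81 takes 44.7 to 45.7% in control and 49.2 to 51.0% in UHRF1 KO, and KRT8, KRT7, KRT18 and KRT19 take a smaller share in UHRF1 KO.

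By level per kb the order was KRT81, KRT8, KRT7, KRT18, KRT19 and KRT86 in both groups. The place of KRT8 below KRT81 depends on its exon length of 6881 bases and is uncertain. KRT81 was at 855 CPM per kb in control and 835 in UHRF1 KO, KRT8 at 389 and 306, KRT7 at 276 and 212, and KRT18 at 261 and 194. Neighbours in this order did not overlap between libraries down to KRT19, but in control KRT86 (24.2 and 15.8 CPM per kb) overlapped KRT80 (18.4 and 18.3). KRT17 moved from rank 16 in control (0.131 CPM per kb) to rank 7 in UHRF1 KO (18.1), just above KRT80 (14.1). The next were KRT10, KRT20, KRT16 and KRT14, at 6.27, 3.77, 3.72 and 1.85 CPM per kb in UHRF1 KO, where KRT20 (3.79 and 3.75) and KRT16 (3.68 and 3.75) overlapped. The highest stratified keratin was KRT10 in control and KRT17 in UHRF1 KO.

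Keratin genes lie in 2 clusters. Neither cluster moved as a block, although some neighbours, such as KRT14, KRT16 and KRT17, rose together. On chromosome 12 (chr12:52168996-52952901) 27 keratins span 783.9 kb, of which 10 were tested, 3 rose and 4 fell. On chromosome 17 (chr17:40654665-41624842) 28 keratins span 970.2 kb, of which 10 were tested, 7 rose and 3 fell. Over all tested genes 32.0% rose and 30.1% fell. With at least 10 counts in each control, 0 of 7 keratins rose and 4 fell on chromosome 12. On chromosome 17, 3 of 6 such keratins rose and 3 fell. Over all genes with that minimum 26.7% rose and 34.5% fell. KRT15 rose and KRT19, 1.1 kb away, fell. KRT9, the keratin of palm and sole skin, lies between KRT19 and KRT14 and had 1 count in each group. KRT6C, between KRT6B and KRT6A, had 1 count in all, although 44.8% of the KRT6B windows also occur in KRT6C, so the 3 KRT6 rows are uncertain as single genes. KRT20 and its neighbour KRT12 both rose, while KRT10, 38.3 kb from KRT12, fell. Between KRT40 and KRT33A lies a gap of 359.0 kb. Of the 94 KRTAP genes, which encode matrix proteins of hair and lie partly in that stretch, 82 had no count and 1 was tested and not called.

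**Figure D4:**
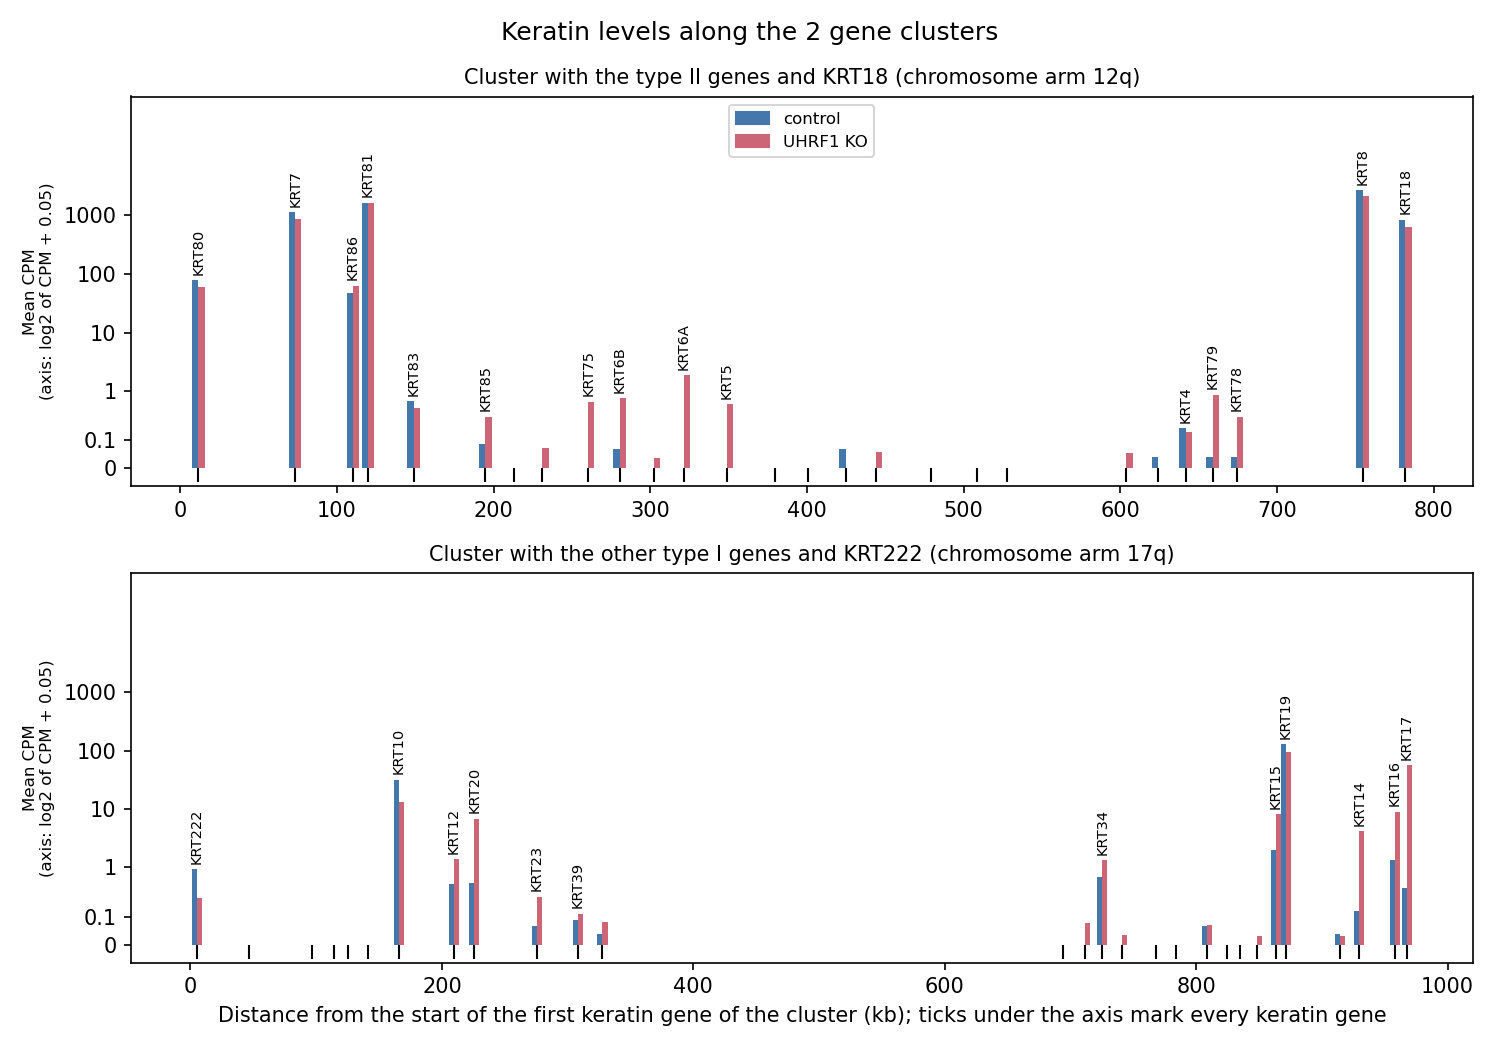
Mean CPM of every keratin in control and UHRF1 KO along each gene cluster, against the distance in kb from the start of the first keratin gene. The axis is log2 of CPM + 0.05, and ticks mark genes without a bar. KRT14, KRT16 and KRT17 at the right end of the lower panel are higher in UHRF1 KO, and many genes between risen ones stay at 0.

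Genes just outside the clusters also went both ways. The nearest 4 protein-coding rows on each side, by start position, made 16 in all. Of these, 13 were tested, 6 rose and 3 fell, where 32.0% and 30.1% of all tested genes did. Among the untested rows, AC073508.2 overlaps KRT222 and had 0 counts. The following were chosen after their values were seen. Beside the chromosome 12 cluster, NR4A1, an orphan nuclear receptor, rose (log2 fold change 2.91, edgeR adjusted p = 7.96e-33), and EIF4B, a translation initiation factor, fell (-0.34, adjusted p = 9.10e-11). Beside the chromosome 17 cluster, TNS4, a focal adhesion protein, rose (1.22, adjusted p = 4.00e-24), and EIF1 was not called (0.01, adjusted p = 0.818).

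Keratin rows also share sequence with pseudogenes and with genes on the opposite strand. The table held 147 keratin pseudogene rows, 65 with a count and 5 tested. Of the windows of KRT8 16.1% and of KRT18 24.5% occur in other genes, and the 2 genes share 525 exon bases on opposite strands. The corresponding shares are 16.8% for KRT14, 16.5% for KRT16 and 9.02% for KRT17, mostly with pseudogenes of KRT16 and KRT17 or, for KRT14 and KRT16, with each other. KRT7 overlaps KRT7-AS, an antisense row with 223 and 229 counts in control and 357 and 346 in UHRF1 KO (log2 fold change 0.32, edgeR adjusted p = 0.0156). The sources used here do not say whether counting used strand or kept reads that match several places, so reads of such pairs cannot be told apart.

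The structures that hold keratin filaments were followed through lists of related genes. All lists together held 118 genes, of which 84 were tested, 45 rose and 20 fell, where 32.0% and 30.1% of all tested genes did. Several, such as PKP1, DSG3, SERPINB5, S100A8 and DES, could be tested only through UHRF1 KO. Of the 68 with at least 10 counts in each control, 31 rose and 20 fell, where 26.7% and 34.5% of all genes with that minimum did. The same shares over all genes stand beside every list that follows. Desmosomes anchor keratin filaments at cell contacts, and of their 15 genes 12 were tested, 6 rose and 3 fell. Of the 9 with at least 10 counts in each control, 3 rose and 3 fell, with a median log2 fold change of 0.04 against -0.06 over all genes with that minimum. PKP1, the plakophilin of stratified epithelia, had 2 and 0 counts in control and 132 and 128 in UHRF1 KO. DSG3, a desmosomal cadherin of basal keratinocytes, had 0 and 0 against 33 and 23 counts, at least 14.9-fold higher, and DSC2, a widely expressed desmocollin, rose (log2 fold change 0.45). DSC3, the desmocollin of basal cells, fell from 6.51 to 1.73 CPM (log2 fold change -1.91), as did PKP3 (-0.48) and PKP4 (-0.42), plakophilins of many epithelia. DSP, the plakin that binds keratin at every desmosome, was not called (-0.08, edgeR adjusted p = 0.0958).

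Hemidesmosomes anchor keratin to the basement membrane. All 11 genes of that list, which also holds plakins, were tested, and 8 rose and 2 fell, with a median of 0.23. All 11 had at least 10 counts in each control. Over all genes with that minimum 26.7% rose and 34.5% fell, with a median of -0.06. COL17A1, a transmembrane collagen of the hemidesmosome, went from 27 and 29 counts to 184 and 219 (log2 fold change 2.52). LAMB3, a laminin chain of the basement membrane, rose by 2.48 on the log2 scale, reaching 208 CPM. EVPL (-0.54), a plakin of the cornified envelope, and DST (-0.32), a plakin with a hemidesmosomal form, fell, and DST was not called with library size alone (edgeR adjusted p = 0.0585). PLEC, which ties keratin to hemidesmosomes, was not called (0.05, edgeR adjusted p = 0.167).

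Cornified envelope and squamous differentiation genes numbered 34, of which 15 were tested, 12 rose and 0 fell, with a median of 2.13. Over all tested genes 32.0% rose and 30.1% fell, with a median of 0.02. S100A9, a calcium-binding protein of activated keratinocytes and myeloid cells, had 1 and 1 counts in control and 374 and 398 in UHRF1 KO, a ratio of 308 with a counting interval from 85.0 to 2548. LY6D, a surface protein of squamous cells, had 0 and 1 against 56 and 83 counts, and SERPINB5, an epithelial serpin, had 0 and 0 against 18 and 37, at least 14.6-fold higher. The core envelope genes IVL, SPRR1A, SPRR1B, SPRR2A, SPRR2E and SPRR3 had 0 counts in all 4 libraries, and LOR, SPRR2D and KRTDAP had at most 1. This list too holds genes that could be tested only through UHRF1 KO. Of its 8 genes with at least 10 counts in each control 5 rose and 0 fell, with a median of 0.90. Over all genes with that minimum 26.7% rose and 34.5% fell, with a median of -0.06.

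**Figure D5:**
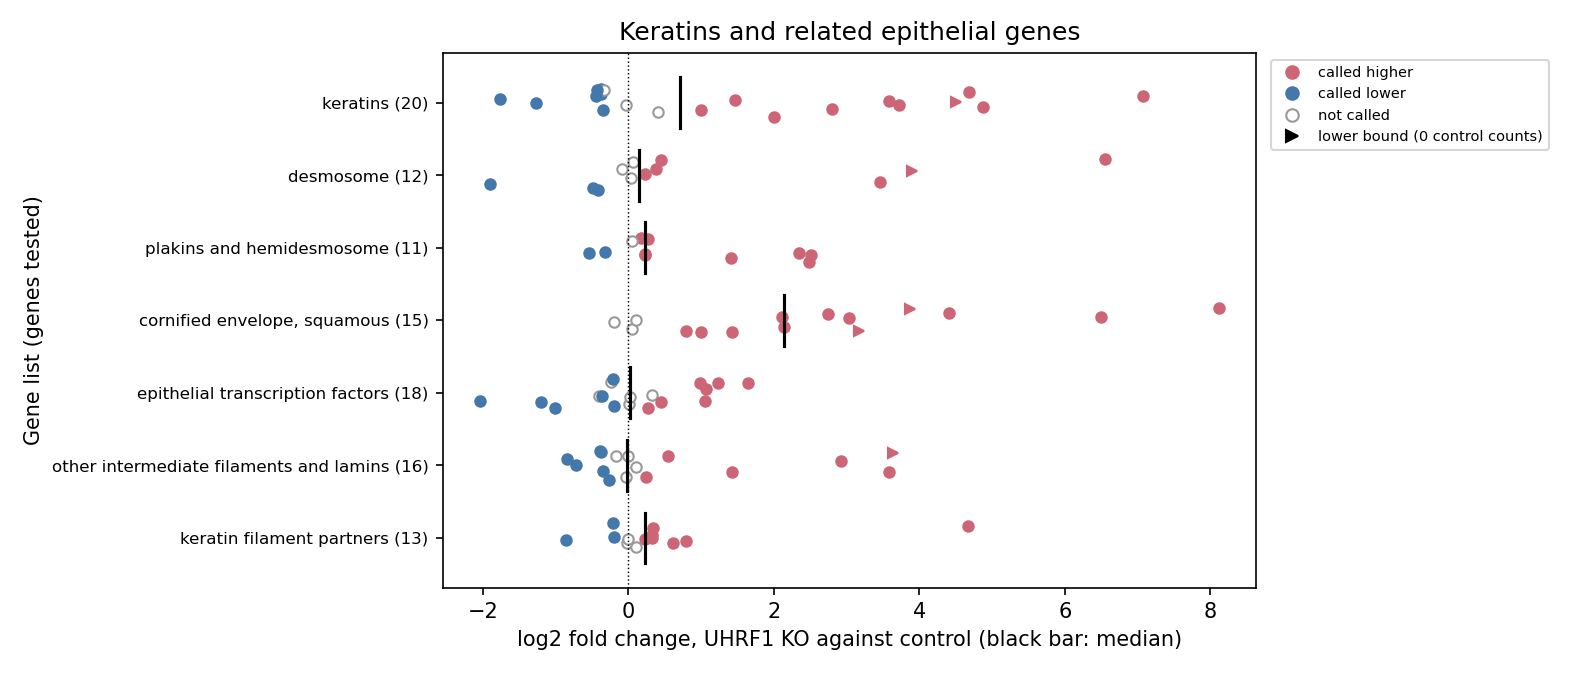
Log2 fold changes of tested keratins and of the tested genes of 6 related lists, with 1 point per gene, coloured by call, and the median of each list as a black bar. Triangles are lower bounds of genes with 0 control counts. Medians run from -0.02 in the other intermediate filaments to 2.13 in the cornified envelope list.

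Transcription factors of epithelial keratin genes were split. Of 27 genes 18 were tested, 7 rose and 6 fell, with a median of 0.02. KLF4, a factor of epidermal barrier formation, went from 27.5 to 85.9 CPM (log2 fold change 1.64). ELF3, an epithelial ETS factor, rose by 1.23 and CEBPA by 1.07 on the log2 scale. SOX2, a factor of basal airway and squamous cells, fell from 4.53 to 1.11 CPM (log2 fold change -2.04), and FOXA2 (from 23.2 to 10.1 CPM), a factor of lung, gut and liver epithelium, also fell. TP63, the master factor of basal keratinocytes, named after its value was seen, had 28 and 36 counts in control and 74 and 93 in UHRF1 KO (log2 fold change 1.05, edgeR adjusted p = 0.000418).

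Other intermediate filament genes numbered 18, of which 16 were tested, 6 rose and 6 fell, with a median of -0.02. Of the 12 with at least 10 counts in each control, 3 rose and 6 fell. DES, the muscle filament protein, had 0 and 0 counts in control and 30 and 17 in UHRF1 KO, at least 12.5-fold higher. IFFO1, a filament family member of the nucleus, rose from 0.709 to 8.64 CPM and GFAP, the astrocyte filament protein, from 1.40 to 3.75 CPM. The nuclear lamin LMNB1 (log2 fold change -0.84), the neurofilament NEFL (-0.72) and the lens filament protein BFSP1 (-0.39) fell, although BFSP1 was not called without UHRF1 KO replicate 2 (edgeR adjusted p = 0.0522), with library size alone (0.0601) or in DESeq2 (0.0968). VIM, the filament protein of mesenchymal cells, named after its value was seen, rose from 483 to 570 CPM (log2 fold change 0.24, edgeR adjusted p = 5.21e-07).

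A list of keratin filament partners held 14 genes, among them KRTCAP2 and KRTCAP3, keratinocyte-associated proteins by name that are not known to bind filaments. Of these, 13 were tested, 7 rose and 3 fell, and of the 12 with at least 10 counts in each control 6 rose and 3 fell. EPPK1, the plakin epiplakin, which binds keratin networks, had 2 and 4 counts in control and 80 and 120 in UHRF1 KO (log2 fold change 4.68). SFN, the 14-3-3 protein of epithelia that binds phosphorylated keratin, rose by 0.80 and KRTCAP2 by 0.62, though KRTCAP2 was not called without control replicate 1 (0.32), without UHRF1 KO replicate 2 (0.33) or in DESeq2 (edgeR or DESeq2 adjusted p from 0.160 to 0.390). The small heat shock protein HSPB1 fell from 333 to 184 CPM (-0.86). TCHP (-0.19), a keratin-binding centrosome protein, fell too, but was not called with library size alone (adjusted p = 0.317). It was also not called without control replicate 1 (0.0691), without UHRF1 KO replicate 2 (0.178), with TMM over genes with at least 10 counts in every library (0.0870) or in DESeq2 (0.126).

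Markers of other cell types also differed between the groups, and their part in the result was not tested. Summed over the 12 keratinocyte and squamous markers, the level was 12.1 and 13.6 CPM in control and 70.9 in both UHRF1 KO libraries, of which SBSN alone gave 43.1 and 43.6 CPM. Of these, 7 were tested, 6 rose and 1 (DSC3) fell, where 32.0% and 30.1% of all tested genes did. PKP1, LY6D and DSG3 could be tested only through UHRF1 KO. Of the 4 with at least 10 counts in each control 3 rose and 1 fell. Over all genes with that minimum 26.7% rose and 34.5% fell. These shares stand beside the other marker lists below as well. The defining markers IVL and SPRR1B were at 0. The 10 fibroblast markers summed to 5.38 and 8.30 CPM against 27.1 and 28.6, with 4 of 5 tested genes higher, 1 of the 2 with at least 10 counts in each control, and none at 0 in all libraries. For the 10 blood and endothelial markers the sums were 2.24 and 2.16 CPM against 36.1 and 37.6. PECAM1 alone gave 29.9 CPM of the latter, CD3E was at 0 and HBB and LYZ were at 0 in UHRF1 KO. Of 13 lung and A549 markers 8 were tested, 3 rose and 5 fell, and their sum went from 15502 and 15215 CPM to 7432 and 7459. That fall came mostly from ALDH1A1 (8215 to 2483 CPM) and AKR1B10 (3204 to 792 CPM).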

How the data were processed

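RNA-seq of 4 A549 libraries, 2 control and 2 UHRF1 KO, was analysed. The authors deposited raw read counts for each gene, whole numbers by the file's values. FastQC 0.10.1 and GRCh38 are named per the submitters' processing notes. Per the labels' protocols, Trizol RNA went into a SMARTER mRNA-Seq kit. The aligner, counter, strand use and multi-mapping rule were not given in the sources used here. All 58735 identifiers were found in GENCODE 29 (GRCh38), which gave symbols, exons and coordinates. Promoter sequences are RefSeq's (GRCh38.p14).

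The short name of the first control stands in both controls' descriptions, so the control columns were matched by the number in the titles. Only the block and the names of left-out controls depend on it. Libraries of a group differed by more than counting noise (chi-square per degree of freedom 2.65 and 1.85) and were kept as 2 replicates.

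Counts were fitted in R 4.3.3 with edgeR 4.0.16 (filterByExpr, TMM, robust glmQLFit, glmQLFTest, two-sided) over 17030 genes, with limma 3.58.1 and DESeq2 1.42.0 as alternatives. The biological coefficient of variation was 3.16%. Each SE is approximate: the size of the log2 fold change divided by the root of the F statistic. Genes at 0 in both controls are set against a floor of 3 counts over both, and ratios with 1 to 3 control counts carry exact conditional 95% intervals. Floors and intervals cover counting error only. Exact permutation of 2 against 2 libraries cannot go below p = 0.333, so summed levels were not tested. Steps were tested on simulated data.

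The members and gene lists were chosen with earlier results of these data known. Genes named were UHRF1, every tested keratin, untested keratins by class and, per related list, up to 3 called genes with the largest rise and 3 with the largest fall that reached 1 CPM. Some of these genes are not reported here. Others are said to be named after their values were seen. Alternatives were other scalings, filters, a replicate block, leaving out each library, other tests and stricter thresholds.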

Additional observations from a re-analysis of the deposited data

How the results depend on the processing

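Counts of called keratins held at 10 higher and 7 lower with DESeq2 size factors, upper-quartile factors, TMM over genes with at least 10 counts in every library and limma-voom, and so did the genes. With a minimum of 2-fold, 2 keratins were lower (1 of type I, 0 of type II and 0 simple), 2616 and 432 of all genes were higher and lower, and 27 and 4 of the related genes. Type II keratins called higher numbered 6 with no filter, 1 with at least 1 CPM in 2 libraries and 5 to 6 when a library was left out. With library size alone 13 related genes were lower, and 6564 genes were higher and 3761 lower, so that 63.6% of calls were rises against 51.5%. That scaling moved the median of all genes from 0.02 to 0.13 on the log2 scale, and the falls of KRT7, KRT8, KRT18, KRT19 and KRT80 were called there too.

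The summed simple level had a log2 ratio of -0.37, which became -0.26 with library size alone, -0.32 with TMM over genes with at least 10 counts, and -0.35 to -0.42 when a control was left out (-0.42 without control replicate 2). The stratified ratio of 1.38 became 1.49 and 1.43 under the same scalings and 1.33 to 1.40 when a library was left out (1.33 without control replicate 1). The hair ratio of -0.02 turned to 0.0064 with upper-quartile factors, 0.092 with library size alone and 0.033 with TMM over genes with at least 10 counts, and ran from -0.078 (without UHRF1 KO replicate 1) to 0.029 (without UHRF1 KO replicate 2). KRT81 turned to 0.076 with library size alone and 0.017 with TMM over genes with at least 10 counts, and ran from -0.096 to 0.017 (without UHRF1 KO replicates 1 and 2). KRT83 ran from -1.12 to 0.10 (without UHRF1 KO replicates 2 and 1). The cause was not tested.

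Same-numbered libraries did not deviate together (correlation -0.03 over 17030 genes). With 2 libraries per group this cannot tell whether they share a culture or a day. With the replicate block 5280 genes were higher and 4986 lower, and 10 keratins were higher and 7 lower. Depth limits the keratins with few counts.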
